A study of Mus musculus with 8 samples.

Results

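The 5 genes described here are Csf1r, Csf1, Csf2ra, Csf2rb and Csf3r, that is, 4 receptor genes for colony-stimulating factors and 1 ligand gene. They were chosen by name among 21887 protein-coding genes, and their loci, each the gene span plus 20 kb on each side, held 31 of the 52251 regions in which any library had a peak. The assay was ATAC-seq, in which a transposase inserts adapters into open DNA, applied to hippocampal microglia in 4 FGR and 4 Ctrl libraries. FGR denotes mice with intrauterine growth restriction, whose cause the labels do not give, and Ctrl denotes control mice. All mice were 3 weeks old, and all carried 1 Tmem119-tdTomato reporter allele (Tmem119-tdTomato+/-), in which a microglial gene drives a red fluorescent protein. The series asks whether growth restriction alters chromatin accessibility in these cells. The labels give neither the number of animals behind a library nor their sex. The tests therefore take libraries as units, and differences between libraries may be technical.

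Colony-stimulating factors are secreted proteins that keep myeloid cells alive, dividing and differentiating. Csf1r encodes a receptor tyrosine kinase for the ligands CSF1 and IL-34, and microglia depend on it for survival. An enhancer inside the gene, known as FIRE, is needed for Csf1r expression in mouse microglia. Csf2ra and Csf2rb encode the alpha and the common beta chain of the GM-CSF receptor, the beta chain also serving the receptors for IL-3 and IL-5. Csf3r encodes the G-CSF receptor, best known from neutrophils.

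The lists held 23327 to 29501 peaks in FGR libraries and 10862 to 24195 in Ctrl libraries, and the background coverage, a depth measure recovered from the authors' peak values, was 3.52 to 4.82 in FGR and 3.01 to 6.05 in Ctrl. Summits at exactly the same base made up 6.78% of the shorter list between FGR replicates 1 and 3 and 5.96% between FGR replicates 2 and 4, against 1.21% to 1.59% in the other 13 pairs among the FGR libraries and Ctrl replicates 3 and 4. FGR means and SDs were taken over these pairs (n = 2 pairs). In Ctrl the same numbers shared only 0.00621% and 0.0368%, so Ctrl SDs were taken over the 4 libraries. The SDs are therefore not comparable between the groups. The permutation tests count all 8 libraries as separate. Their smallest p is then 0.0286, which passes adjustment only if most features reach it. No locus or region of the series passed these tests. As an alternative, replicates 1 and 3, and 2 and 4, were averaged in both groups, so Ctrl libraries were averaged too. With libraries averaged by pair in this way the smallest p is 0.333, at which no permutation test below could pass. Averaging the FGR pairs alone was not tested. For presence of a peak nothing was averaged, and a pair counted as having the peak where either of its libraries had it. Ctrl replicates 1 and 2 stood apart, with median peak widths of 566 and 522 bp, against 353 to 358 bp in FGR, 368 bp in Ctrl replicate 3 and 386 bp in Ctrl replicate 4. Their lists were also the shortest, and they are left out as an alternative beside results that changed with them. Replicates 1 and 2 of both groups form deposit set 1, and replicates 3 and 4 form deposit set 2. Whether these sets are batches was not tested. Of 13 microglia markers, 9 to 11 had a peak within 1 kb of a gene end in FGR and 5 to 10 in Ctrl. Of all genes, 34.8% to 48.5% were marked in this way, depending on the library. Tmem119, Cx3cr1, Sall1 and Irf8 were among the markers so marked in all 8 libraries. P2ry12 was marked in 1 FGR library only, and Aif1 and Gpr34 in none. Of 7 monocyte and neutrophil markers none was marked in any library. The highest counts in any library were 2 of 10 for neurons, 2 of 5 for lymphocytes and 1 each for astrocytes (of 6), border macrophages (of 5), oligodendroglia (of 8) and vascular cells (of 6). Fewer cells with an open site and less opening per cell cannot be told apart in such libraries.

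The strongest peak of the Csf1r locus lay inside the gene in all 8 libraries, and it ranked near the top of every list. Csf1r spans chromosome 18 from 61105572 to 61131139 (mm10). The region lay at 61107748 to 61109108, or 2.18 to 3.54 kb after the lower-coordinate end, which is the start of the gene. FIRE is an intronic element near the start of the gene, but the files give neither its coordinates nor exons, so whether the region is that element was not tested. Percentiles used here are ranks of a peak's −log10 q within its own list, where 100 is the strongest peak. The region reached percentiles of 97.4, 98.4, 99.4 and 99.4 in FGR replicates 1 to 4, against 95.5, 95.4, 99.5 and 97.6 in Ctrl replicates 1 to 4. The groups overlapped, since Ctrl replicate 3 was the highest of all. The pileup at the summit, in extended reads per base, was 85, 99, 111 and 119 in FGR and 81, 51, 108 and 98 in Ctrl. These heights are not divided by depth, and the authors' fold over local background was 5.47, 5.43, 6.07 and 5.70 in FGR and 4.33, 4.92, 6.37 and 4.95 in Ctrl. The mean percentile was 98.7 ± 0.377 in FGR and 97.0 ± 1.95 in Ctrl (SD, n = 2 pairs in FGR and 4 libraries in Ctrl). The difference of 1.69 did not pass (exact two-sided permutation test over 70 assignments of 8 libraries, p = 0.257, adjusted p = 0.660 over 17193 loci with a peak), and it was 0.142 without Ctrl replicates 1 and 2. Peak summits lay 3023 to 3056 bp from the gene start in the FGR libraries and Ctrl replicates 3 and 4, and at 3214 and 3246 bp in Ctrl replicates 1 and 2.

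The annotated start of Csf1r itself ranked far below the intragenic region. A peak within 1 kb of it was called in FGR replicates 1 and 3 and in Ctrl replicates 3 and 4, at percentiles of 2.05 and 40.2 in FGR and 2.74 and 34.2 in Ctrl. Summit pileups there were 29 to 45 extended reads, against 31 to 44 at the higher-ranked region at -6.68 kb described below. The fold over local background was 2.15 to 2.59 at the start and 3.34 to 5.26 at the -6.68 kb region. Peaks within 1 kb of the other end of the gene were called in 4 FGR libraries and in 1 Ctrl library, replicate 4, at percentiles of 9.88 to 43.4 in FGR and 12.7 in Ctrl. Those peaks overlap Hmgxb3, a neighbour whose span begins 138 bp after Csf1r ends, and cannot be assigned to one gene. Counting either end, Csf1r was marked in 4 FGR and 2 Ctrl libraries (Fisher's exact test, p = 0.429, adjusted p = 1). A gene-end peak in 4 FGR and 0 Ctrl libraries was found at 0.169% of all genes, and the reverse at 0.0228%, and none of the 5 genes had either pattern. Only these patterns reach the test's smallest p of 0.0286, and they are too rare for any gene to pass adjustment. At Csf1r and at Csf2rb, which was also marked in 4 FGR and 2 Ctrl libraries, no difference was left without Ctrl replicates 1 and 2. With lists of equal length no library kept a gene-end peak at either gene, so that setting cannot show a difference.

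Upstream of Csf1r were 2 further recurrent regions. The nearer one, at -6.68 to -6.13 kb, was called in 4 FGR and 3 Ctrl libraries. Its percentile was 65.0, 78.2, 47.7 and 71.5 in FGR, against 42.7, 72.2 and 64.1 in Ctrl replicates 1, 3 and 4, and the groups overlapped. The farther one, at -14.9 to -14.2 kb (chromosome 18, 61090681 to 61091398), was called in 4 FGR and 2 Ctrl libraries. Its percentile was 58.4, 28.8, 63.3 and 43.6 in FGR, against 9.67 and 24.6 in Ctrl replicates 3 and 4, with no peak in Ctrl replicates 1 and 2. Every FGR library was above every Ctrl library, with a mean difference of 39.9 counting an uncalled region as 0 (exact permutation p = 0.0286, the smallest possible, adjusted p = 0.299 over 28255 regions called in 2 or more libraries). Among these regions 9.26% were separated in this way with FGR higher and 0.287% with FGR lower. The difference was 31.3 without Ctrl replicates 1 and 2 (exact permutation p = 0.133) and 0.105 when each list was cut to its 10862 strongest peaks (exact permutation p = 1), where FGR replicate 3 alone kept the peak. Of the 10 regions of the locus, 4 were called in a single library.

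**Figure D1:**
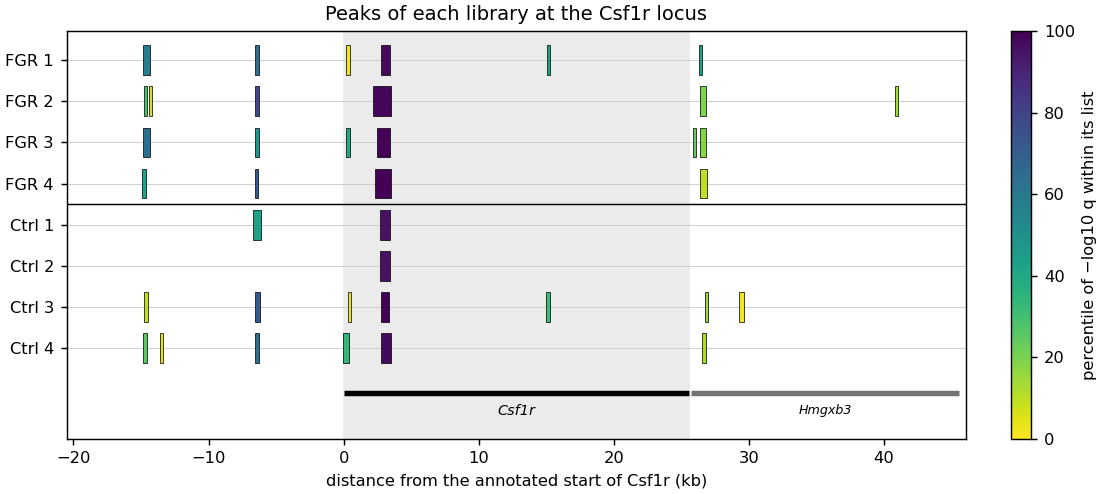
Peaks of each library (rows, FGR above Ctrl) along the Csf1r locus, in kb from the annotated gene start, coloured by percentile of −log10 q within the library's list; grey shading is the gene span, and peaks under 0.25 kb are drawn at that width. The region 2.18 to 3.54 kb into the gene is called in all 8 libraries at percentiles of 95.4 or more, and the region at -14.9 kb is absent in Ctrl 1 and Ctrl 2.

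Csf1 had 1 constant region, at its promoter. Csf1 spans chromosome 3 from 107741048 to 107760469 and is transcribed toward lower coordinates, according to the RefSeq promoter table (GRCm38.p6, the coordinates of mm10). The region, at 107759842 to 107760765, was called in all 8 libraries and overlapped the tabulated promoter in all of them. Summits lay between 66 bp before and 304 bp after the transcript start, at position -66 in Ctrl replicate 2 and after the start in the other 7 libraries. The promoter window runs from 250 bases before to 50 after the start (chr3:107760420-107760719, minus strand) and is shown because every library's peak overlaps it, by 68 (Ctrl replicate 3) to all 300 bases (FGR replicate 3), with capitals marking matches to GGGCGG, a site of SP and KLF factors.
Csf1: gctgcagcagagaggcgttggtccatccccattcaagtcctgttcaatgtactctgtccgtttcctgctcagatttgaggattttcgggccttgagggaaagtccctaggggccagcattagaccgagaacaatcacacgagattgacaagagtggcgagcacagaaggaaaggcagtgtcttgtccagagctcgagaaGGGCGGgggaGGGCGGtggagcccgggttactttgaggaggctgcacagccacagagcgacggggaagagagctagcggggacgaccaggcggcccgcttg
Both matches lie on the gene's own strand, beginning at positions -51 and -41, and 35.7% of the 32851 promoters of the table hold this motif on either strand. The Csf1 promoter peak reached percentiles of 65.8, 67.8, 77.7 and 65.0 in FGR, against 70.9, 8.47, 73.8 and 70.2 in Ctrl. Apart from Ctrl replicate 2, the Ctrl values lay within the range of the FGR values. The mean difference of 13.2 (exact permutation p = 0.771, adjusted p = 0.979) was -2.57 without Ctrl replicate 2 and 18.2 without Ctrl replicate 1. With all 8 libraries kept and each list cut to its 10862 strongest peaks it was -11.1 (exact permutation p = 0.429). Its direction thus depended on both Ctrl replicate 2 and the list lengths. A region at -12.6 kb from the lower gene end was called in 2 libraries of each group, and one at 36.7 kb in 3 FGR and 2 Ctrl libraries. All peaks of the locus also lie within the lncRNA gene Gm40121, which spans it.

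Csf2ra had the most constant locus of the 5, with 3 regions called in all 8 libraries. Csf2ra spans chromosome 19 from 61217191 to 61228461 and is also transcribed toward lower coordinates. The strongest region, at 61226755 to 61227899, lay inside the gene. Its summits were 908 to 1177 bp after the transcript start and it did not overlap the promoter window. Its percentile was 93.8, 91.8, 88.5 and 92.5 in FGR, against 92.4, 93.7, 89.0 and 92.6 in Ctrl, and the groups overlapped throughout. The highest percentile in the locus averaged 91.9 ± 1.02 in FGR and 91.9 ± 2.003 in Ctrl (SD, n = 2 pairs in FGR and 4 libraries in Ctrl), a difference of -0.0581 (exact permutation p = 0.971, adjusted p = 1). With each list cut to its 10862 strongest peaks it was -5.91 (exact permutation p = 0.371). The promoter window (chr19:61228369-61228668, minus strand) is shown for contrast, since only FGR replicate 3 had a peak over it, at percentile 28.2. Capitals mark the single GGGCGG match, on the opposite strand at position -102.
Csf2ra: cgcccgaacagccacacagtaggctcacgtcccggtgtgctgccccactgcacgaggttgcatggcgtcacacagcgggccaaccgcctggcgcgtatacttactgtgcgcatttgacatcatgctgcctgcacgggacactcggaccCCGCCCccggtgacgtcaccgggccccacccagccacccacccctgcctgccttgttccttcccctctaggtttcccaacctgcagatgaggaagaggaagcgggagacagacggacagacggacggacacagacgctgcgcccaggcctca
This window holds 23 CpG dinucleotides at 65.3% G and C, against 16 at 58.7% for Csf1 and 9 at 60.7% for Csf3r, while the medians over all promoters of the table are 7 and 52.7%.

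The other 2 constant Csf2ra regions lay on either side of the gene. The one beyond its 3′ end, at -17.9 to -17.2 kb from the lower gene end (61199256 to 61200002), reached percentiles of 92.6, 92.6, 86.8 and 87.0 in FGR and 67.3, 29.5, 86.9 and 90.6 in Ctrl. The one upstream of the promoter, at 27.3 to 28.1 kb (61244531 to 61245277), reached 77.4, 58.4, 85.7 and 78.3 in FGR and 58.3, 27.0, 74.6 and 68.5 in Ctrl. In both, Ctrl replicates 1 and 2 were lowest and the groups overlapped (exact permutation p = 0.143 for each, adjusted p = 0.513). The differences were 21.2 beyond the 3′ end and 17.9 upstream, and without Ctrl replicates 1 and 2 they were 0.989 and 3.44 (exact permutation p = 0.533 and 0.733).

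Csf2rb, the common beta chain gene, had no region called in all 8 libraries. It spans chromosome 15 from 78325800 to 78351001. A region over its annotated start, at -0.103 to 0.730 kb, was called in 4 FGR libraries at percentiles of 44.9, 33.0, 62.9 and 30.8 and in Ctrl replicates 3 and 4 at 2.70 and 52.1. The strongest region was upstream, at -5.09 to -4.58 kb (78320713 to 78321220). Its percentile was 56.7, 80.8, 77.1 and 69.3 in FGR, against 13.97 in Ctrl replicate 1, no peak in replicate 2, and 67.0 and 56.9 in replicates 3 and 4. FGR libraries were thus mostly higher, with an overlap between FGR replicate 1 and Ctrl replicates 3 and 4. The highest percentile in the locus averaged 71.0 ± 5.78 in FGR and 34.5 ± 32.5 in Ctrl (SD, n = 2 pairs in FGR and 4 libraries in Ctrl). The difference of 36.5 did not pass (exact permutation p = 0.0857, adjusted p = 0.457). It was 21.9 with lists of equal length (exact permutation p = 0.257) and 9.04 without Ctrl replicates 1 and 2 (exact permutation p = 0.333). An intragenic region at 14.3 to 14.8 kb was called in 3 FGR and 2 Ctrl libraries. A region at the edge of the window overlaps the promoter of Csf2rb2, the neighbouring second beta chain gene of the mouse, which serves IL-3. It was called in 3 FGR libraries and 1 Ctrl library at percentiles of 24.1 or less, and 2 of these peaks, in FGR replicates 1 and 3, lie just outside the 20 kb.

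**Figure D2:**
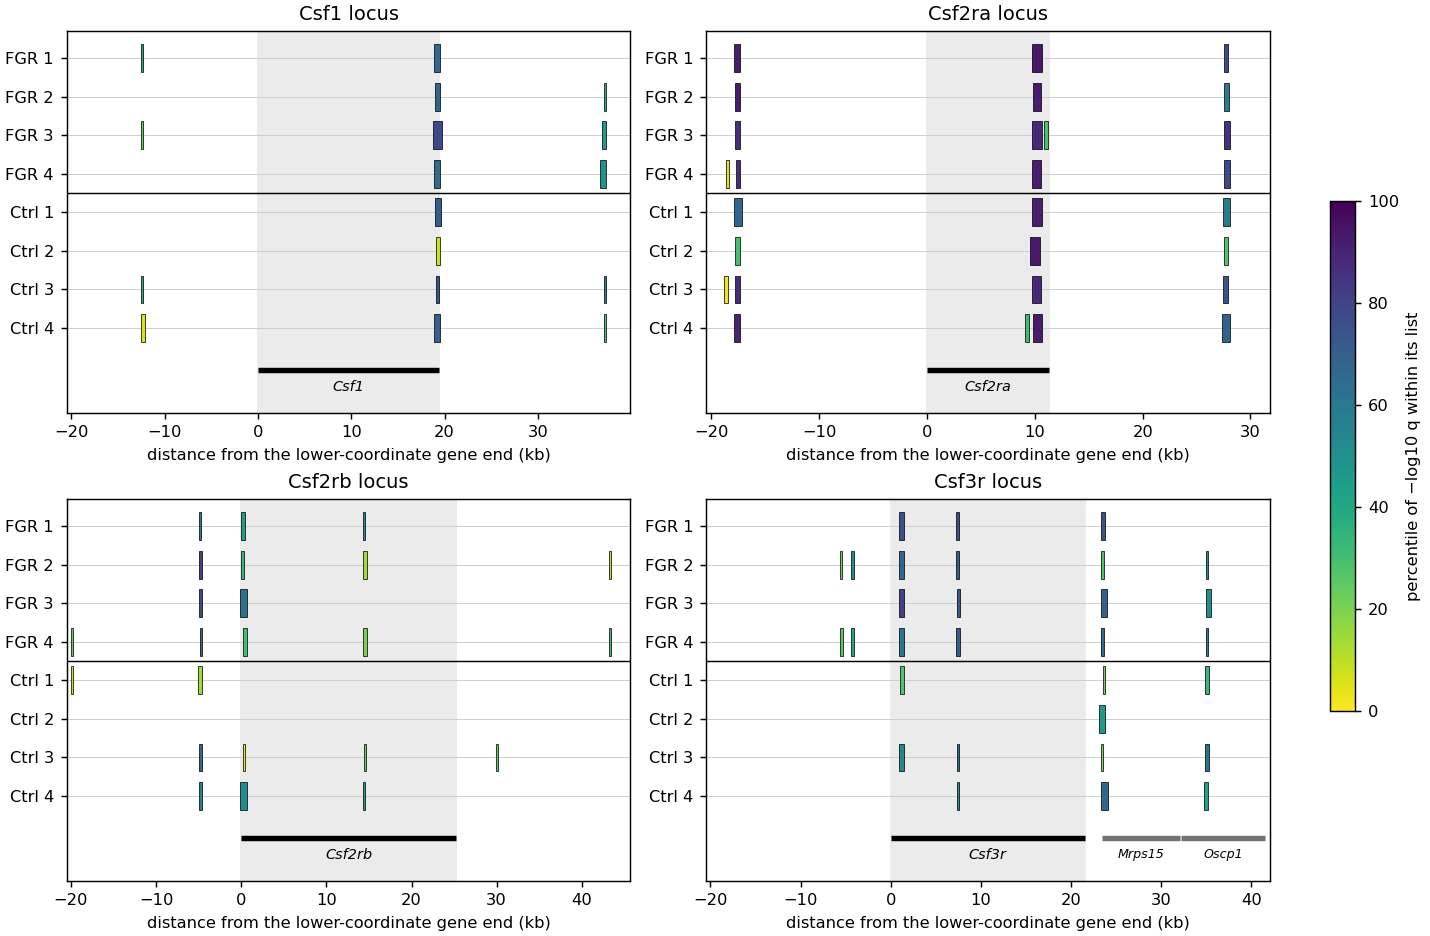
Peaks of each library (rows, FGR above Ctrl) at the Csf1, Csf2ra, Csf2rb and Csf3r loci, in kb from the lower-coordinate gene end and coloured by percentile within the list; grey shading is the gene span, and peaks under 0.25 kb are drawn at that width. The 3 constant Csf2ra regions appear in all 8 rows, while the peak 7.2 kb into Csf3r is missing in Ctrl 1 and Ctrl 2.

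Csf3r was the 1 member at which the percentile of the strongest peak did not overlap between the groups. It spans chromosome 4 from 126023441 to 126044975 and is transcribed toward higher coordinates. The highest percentile in the locus was 76.9, 71.3, 80.6 and 71.8 in FGR, against 32.5, 46.4, 62.6 and 66.6 in Ctrl. The means were 75.1 ± 5.09 in FGR and 52.0 ± 15.7 in Ctrl (SD, n = 2 pairs in FGR and 4 libraries in Ctrl), a difference of 23.1 at the smallest p the test allows (exact permutation p = 0.0286), which did not pass after adjustment over all loci (adjusted p = 0.330). Over the 4 single FGR libraries the SD of this percentile was 4.42, and it was 0.987 at Csf1r, 2.31 at Csf2ra and 10.7 at Csf2rb. Of all loci with a peak, 8.22% were separated with FGR higher and 0.442% with FGR lower. Without Ctrl replicates 1 and 2 the difference was 10.5 (exact permutation p = 0.133). With libraries averaged by pair the exact permutation p was 0.333. With lists of equal length the difference was 16.3 and the separation was lost (exact permutation p = 0.143, adjusted p = 0.555). In Ctrl replicates 1, 2 and 4 the strongest peak was not one of Csf3r's own but lay at the promoter of a neighbour, Oscp1 in replicate 1 and Mrps15 in replicates 2 and 4.

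Inside the gene lay 2 regions, which held the strongest peak in all 4 FGR libraries. The first, at 126024335 to 126024944, covers the tabulated promoter of Csf3r and that of the overlapping lncRNA gene Gm32908. It was called in 4 FGR libraries at percentiles of 75.7, 67.7, 80.6 and 60.9, against 27.4 and 53.3 in Ctrl replicates 1 and 3, with no peak in Ctrl replicates 2 and 4. Within 1 kb of a gene end, Csf3r was marked in 4 FGR and 1 Ctrl libraries (Fisher's exact test, p = 0.143, adjusted p = 1). The Ctrl replicate 1 peak began 1014 bp from the lower gene end, just outside that window. With a window of 2 kb the number was the same in both groups. At the other gene end that window reaches the Mrps15 promoter region, called in all 8 libraries, so it does not compare the Csf3r start. The summit pileups of the first region were 43, 40, 54 and 45 extended reads in FGR and 33 and 38 in Ctrl replicates 1 and 3. The promoter window (chr4:126024409-126024708, plus strand) is shown with capitals over the 151 bases that hold the summits of all 4 FGR libraries, 111 bp before to 39 bp after the transcript start.
Csf3r: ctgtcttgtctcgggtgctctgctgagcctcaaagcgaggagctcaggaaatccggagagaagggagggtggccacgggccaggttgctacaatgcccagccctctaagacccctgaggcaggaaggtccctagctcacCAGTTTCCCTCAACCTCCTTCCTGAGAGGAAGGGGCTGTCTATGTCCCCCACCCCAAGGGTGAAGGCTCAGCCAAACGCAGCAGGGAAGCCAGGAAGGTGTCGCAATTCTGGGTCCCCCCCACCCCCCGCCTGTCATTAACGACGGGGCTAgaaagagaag
None of 8 searched motifs lies in this window on either strand. Their shares of all promoters are 3.20% for GAGGAAGT (PU.1), 23.8% for GGAAGT (ETS factors, which the PU.1 motif contains), 10.8% for TTGCNNAA (C/EBP), 7.81% for TGANTCA (AP-1), 16.8% for TGTGGT (RUNX), 3.44% for the IRF motif (GAAA, any 2 bases, GAAA), 35.7% for GGGCGG (SP and KLF) and 13.6% for TATAAA (the TATA box). In the Csf1 and Csf2ra windows the GGGCGG matches marked above were the only ones.

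The second Csf3r region lay 7.22 to 7.65 kb after the lower gene end (126030656 to 126031095). It was called in 4 FGR libraries at percentiles of 76.9, 71.3, 72.3 and 71.8, against 62.6 and 52.8 in Ctrl replicates 3 and 4, and was missing in Ctrl replicates 1 and 2. Both regions were separated between the groups, with differences of 51.04 at the promoter and 44.2 inside the gene (exact permutation p = 0.0286 for each, adjusted p = 0.299). With lists of equal length they remained separated. The promoter region then reached percentiles of 39.2, 30.6, 47.2 and 5.53 in FGR and 0, 0, 2.39 and 0 in Ctrl, where 0 means not called. The intragenic region reached 42.0, 38.3, 24.9 and 31.8 in FGR and 0, 0, 21.9 and 0 in Ctrl. The differences were then 30.02 and 28.8 (exact permutation p = 0.0286, adjusted p = 0.323). Without Ctrl replicates 1 and 2 they were 44.6 and 15.3, and both regions were still separated. The exact permutation p was 0.0667 for each, the smallest possible with 15 assignments, at which no test could pass. The intragenic value was the one that rested more on Ctrl replicates 1 and 2. In all, 3 of the 24 regions of the 5 loci called in 2 or more libraries, or 12.5%, were separated with FGR higher and 0 with FGR lower, beside the 9.26% of all such regions given above. Each of the 3 was called in 6 libraries, and among all regions called in 6 or more the shares were 12.4% with FGR higher and 0.437% with FGR lower. The 12.4% does not compare with the 12.5%, which counts regions called in 2 or more. Fewer of the 24 regions were called in 6 or more libraries, and all 3 are among them. Their share there is thus above 12.5%, and its difference from 12.4% was not tested. The comparison of percentiles by region was chosen after values were seen.

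The remaining Csf3r regions belong in part to its neighbours. Those at 23.1 and 34.8 kb overlap the promoters of Mrps15, a mitochondrial ribosomal protein gene, and Oscp1. The Mrps15 region was called in all 8 libraries and the Oscp1 region in 3 of each group. Upstream regions at -5.65 and -4.40 kb were called only in FGR replicates 2 and 4, as was the Csf2rb region at 43.2 kb. These 3 of the 5 regions called in exactly 2 libraries thus came from a pair of FGR libraries that share summits.

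**Figure D3:**
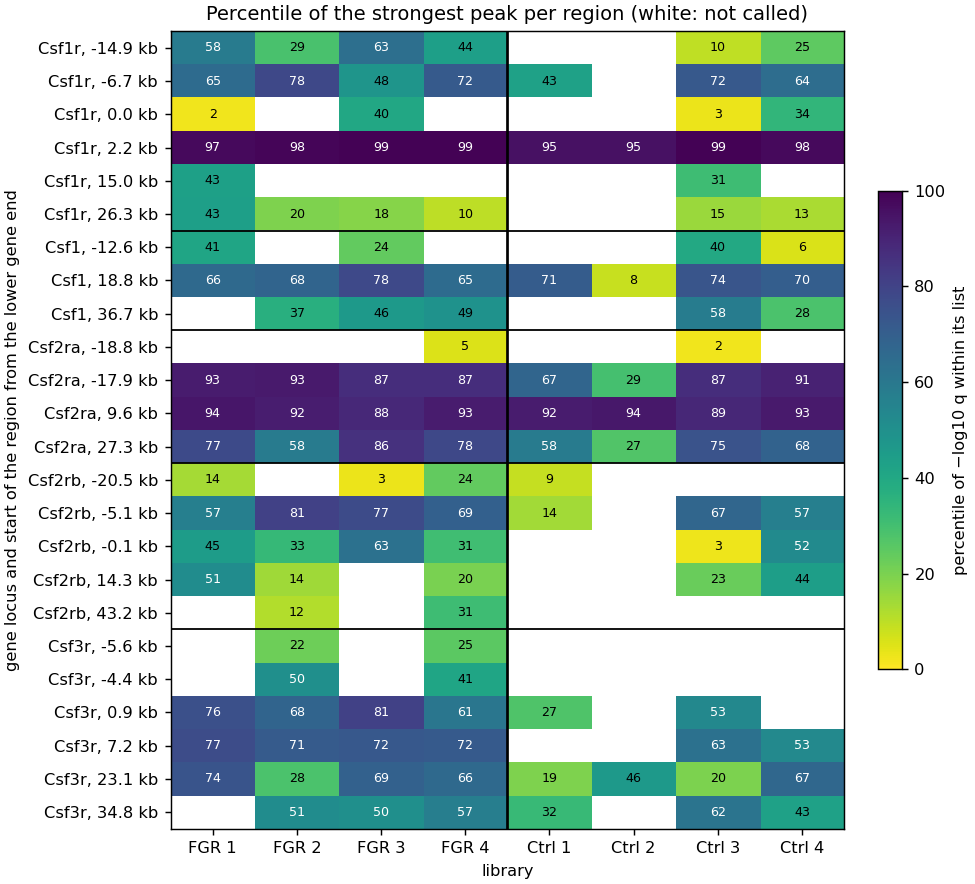
Percentile of the strongest peak (rounded to whole numbers, white where no peak was called) for the 24 regions of the 5 loci called in 2 or more libraries, by library, FGR left of Ctrl. The region starting 2.18 kb into Csf1r is dark in every column, and white cells gather in Ctrl 1 and Ctrl 2.

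Presence of a region separated the groups nowhere in the 5 loci. None of the 31 regions had a peak in 4 FGR and 0 Ctrl libraries, a pattern of 0.869% of all regions, or in 0 FGR and 4 Ctrl libraries, a pattern of 0.0268%. More FGR than Ctrl libraries called 16 of the 31 regions, or 51.6%, and more Ctrl libraries called 4, or 12.9%, against 58.6% and 17.8% of all regions. Fisher's exact test, adjusted over 19399 regions, gave 1 for every region of the 5 loci that it tested, with unadjusted p of 0.429 or more, and 0 calls. Over all regions 468 had an unadjusted p under 0.05. The smallest p of this test is 0.0286, and with so few regions at it none in the series could pass adjustment. The 0 calls are thus no result about the 5 loci. All 8 libraries called 6 of the 31 regions, or 19.4%, against 16.9% of all regions. A further 4 were called in every library except Ctrl replicates 1 and 2, namely 2 at Csf1r (at -14.9 and 26.3 kb), 1 at Csf2rb and 1 at Csf3r. They make up 33.3% of the 12 regions that all other libraries called, against 6.32% of 12641 such regions in the whole series.

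The number of peaks per locus passed the test at no member. The Csf1r locus held 6, 6, 6 and 4 peaks in FGR replicates 1 to 4 and 2, 1, 7 and 6 in Ctrl replicates 1 to 4. The Csf3r locus held 3, 6, 4 and 6 in FGR and 3, 1, 4 and 3 in Ctrl, and the Csf2rb locus 3, 4, 2 and 5 in FGR and 2, 0, 4 and 3 in Ctrl. The Csf2ra locus held 3, 3, 4 and 4 peaks in both groups, and the Csf1 locus 2, 2, 3 and 2 in FGR and 1, 1, 3 and 3 in Ctrl. The groups overlapped at all 5 loci, while 2.83% of all loci with a peak were separated with FGR higher and 0.0233% with FGR lower. Mean differences ran from 0 at Csf2ra to 2 at Csf3r (exact permutation p from 0.2 to 1, adjusted p = 1 for each). No locus of the series had a smaller adjusted p on this measure. Without Ctrl replicates 1 and 2 the difference was -1 at Csf1r against 1.5 with all libraries, -0.75 at Csf1 against 0.25, -0.5 at Csf2ra against 0, 0 at Csf2rb against 1.25, and 1.25 at Csf3r against 2.

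**Figure D4:**
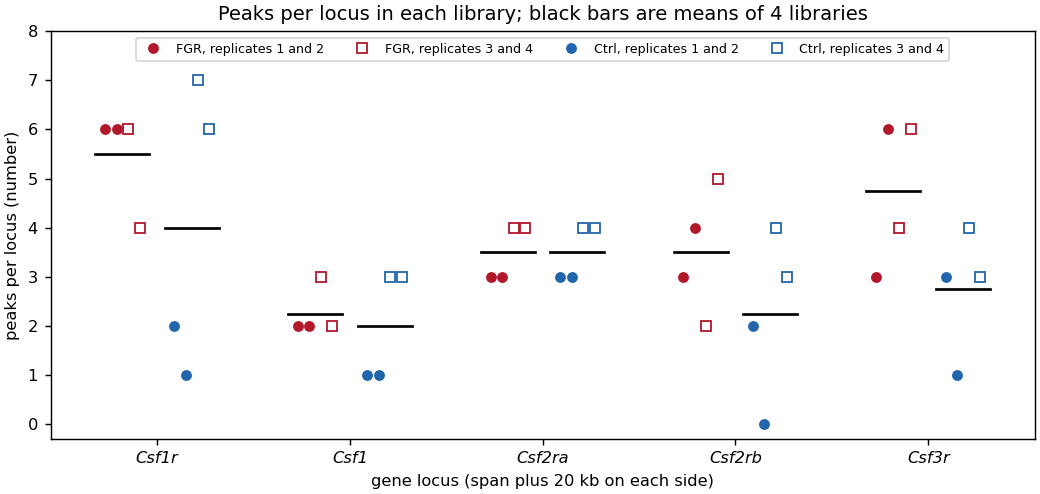
Number of peaks per locus in each library at the 5 genes, FGR left of Ctrl; filled circles are replicates 1 and 2, open squares replicates 3 and 4, and bars are means. At Csf1r the FGR libraries hold 4 to 6 peaks and the Ctrl libraries either 1 to 2 or 6 to 7.

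Divided by list length, no member passed the test across loci. Peaks per 10000 peaks of the list were compared with limma on log2 values with 0.5 added to each count, over the 8037 loci that averaged 2 peaks or more, as did all 5 members. The log2 differences of FGR over Ctrl were 0.10 ± 0.26 at Csf1r, -0.34 ± 0.31 at Csf1, -0.59 ± 0.24 at Csf2ra, 0.28 ± 0.34 at Csf2rb and 0.16 ± 0.26 at Csf3r (SE, limma adjusted p from 0.229 to 0.823). Of all loci tested, 0.0124% passed with FGR higher and 0% with FGR lower, and at an unadjusted p under 0.05 the shares were 2.60% and 15.6%. The median of all loci was -0.28, with longer lists in FGR, and the median of the 5 members was 0.10. Csf1r, Csf2rb and Csf3r lay above the median of all loci and Csf1 and Csf2ra below it, but without Ctrl replicates 1 and 2 only 1 of the 5 lay above it. Csf2ra had the lowest value of the 5 (limma adjusted p = 0.229). Its peak numbers were the same in both groups, and without division by list length its log2 difference was 0 (limma adjusted p = 1). Without division the median of all loci was 0.31, and the Csf1 difference turned to 0.25.

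**Figure D5:**
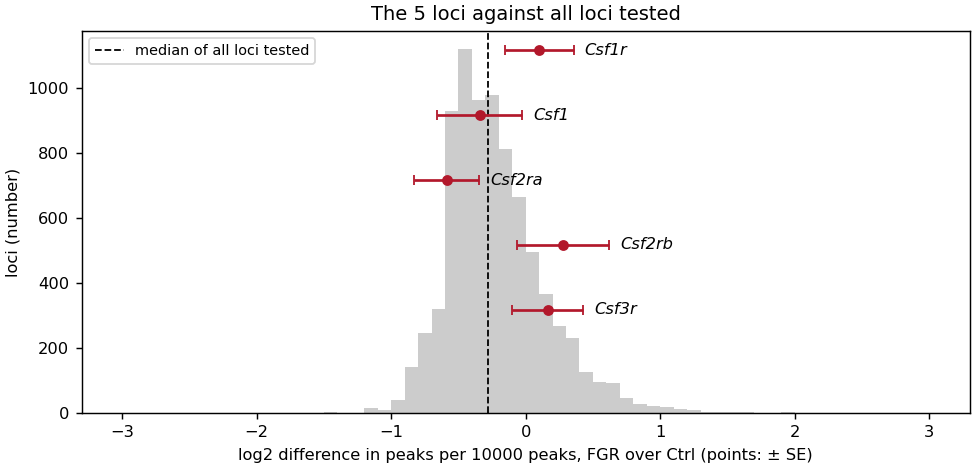
Log2 difference in peaks per 10000 peaks, FGR over Ctrl, for the 5 loci (points with SE, height arbitrary) over the histogram of all 8037 loci tested; the dashed line is their median of -0.28. None of the 5 passed the limma test.

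Other genes of the same pathways were taken from a list of 49. Of these 38 passed the filter on peaks, and none passed the limma test in either direction, with adjusted p from 0.130 to 0.971. Their median log2 difference was -0.12, and 28 lay above the median of all loci. Il34, the second ligand of the CSF1 receptor, had 1, 1, 0 and 0 peaks in its locus in FGR and 0, 0, 0 and 1 in Ctrl. Csf2 and Csf3, the ligand genes of the GM-CSF and G-CSF receptors, had 0, 0, 1 and 0 and 2, 3, 3 and 2 in FGR, against 0, 0, 1 and 1 and 2, 1, 2 and 2 in Ctrl. The IL-3 gene Il3 had no peak in FGR and 1 in each of Ctrl replicates 3 and 4. Its window overlaps that of Csf2, whose strongest peak in these 2 libraries has the same percentile, 43.7 and 35.5. The IL-5 gene Il5 had 3, 2, 3 and 2 in FGR and 1, 1, 2 and 2 in Ctrl. Of the receptor subunit genes, Csf2rb2 had 4, 1, 3 and 2 peaks in FGR and 2, 0, 2 and 2 in Ctrl, with the Csf2rb region at -5.09 kb as its strongest peak, and Il3ra and Il5ra had 1 or 2 in every library.

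Peak numbers did not overlap at 5 of the 49 loci, all higher in FGR, beside 2.83% of all loci with a peak. These shares are not like for like. The loci with a peak had a median of 1.75 peaks, against means of 4.375 (Plcg2) to 9 (Inpp5d) at the 5. Whether the 5 exceed the share among loci with as many peaks was not tested. The locus of Lyn, a Src-family kinase gene, held 9, 10, 9 and 9 peaks in FGR and 3, 2, 7 and 6 in Ctrl. Grb2, an adaptor gene that links receptor tyrosine kinases to Ras, had 11, 12, 11 and 9 in FGR and 7, 5, 6 and 7 in Ctrl. Inpp5d, which encodes the lipid phosphatase SHIP1, had 11, 10, 10 and 12 in FGR and 8, 3, 9 and 9 in Ctrl. Plcg2, a phospholipase gene, had 5, 5, 6 and 6 in FGR and 4, 1, 4 and 4 in Ctrl, and Mitf, a transcription factor gene, had 7, 8, 7 and 8 in FGR and 3, 2, 4 and 6 in Ctrl. These are counts not divided by list length. After division their log2 differences were 0.05 at Inpp5d, 0.15 at Grb2, 0.22 at Plcg2, 0.41 at Mitf and 0.51 at Lyn (limma adjusted p from 0.218 to 0.872). A peak at a gene end was called in all 8 libraries at 27 of the 49 genes, and in 31.9% of all genes, and at none of the 49 in all libraries of 1 group and none of the other.

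The loci whose peak numbers were most like those of each member over the 8 libraries were found by Pearson correlation of the log2 values used for limma, as a description across libraries that share their list lengths. For Csf1r they were Zmynd8 (r = 0.908), Bcas3 (r = 0.897) and Nipa2 (r = 0.893), for Csf2rb Lrrk1 (r = 0.978), Zscan26 (r = 0.967) and Gpr132 (r = 0.963), and for Csf3r Ptp4a2 (r = 0.953), Rpgrip1 and Slc36a1 (r = 0.931 each). For Csf1, Gm7827, Rps27a and Vsig10 had the same number of peaks in every library (r = 1). For Csf2ra, Idh2 and Rnf40 did too (r = 1), followed by Cables2 (r = 0.987), and 644 loci had r over 0.9.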

How the data were processed

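ATAC-seq peak lists of 8 libraries were used. The submitters' processing notes list MACS2 2.2.7.1, SAMtools 1.3.1, DiffBind 3.12.0, Bowtie2 2.4.5, Trim Galore 0.6.5 and the build mm10, with no role or order. Read shifting, duplicate handling and call thresholds: not given in the sources used here. Each library has a peak list of its own. The deposited score is a display number and was not used. The deposited fold is the ratio of summit pileup to local background, by the authors. The −log10 p and −log10 q columns deposited by the authors were used for pileup recovery (100% of peaks within 0.001) and for ranks within a list. The summit offset was deposited by the authors too.

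Gene positions came from RefSeq GRCm38.p6. Peaks sharing 1 bp were merged into regions. A locus with no peak in a library was given percentile 0. Tests were exact two-sided permutations over 70 assignments, Fisher's exact test and limma 3.58.1 (R 4.3.3, with trend), with Benjamini-Hochberg adjustment over all features and a threshold of 0.05, 4 measures for each of 5 genes. Region percentiles and the separate counting of both gene ends were added after seeing the data. Members and lists were chosen with earlier results of these data known. Named genes are the members, their neighbours, the pathway ligands and receptor subunits, pathway genes whose groups do not overlap, and the 3 loci most correlated with each member. Tmem119, Cx3cr1, Sall1, Irf8, P2ry12, Aif1 and Gpr34 come from the marker list. The limma step, tested on simulated data for FGR against Ctrl with 8037 loci, called 1% of loci changed by a fold of 2 and 14% by a fold of 4. Software was scipy 1.17.1, pandas 2.3.3, matplotlib 3.10.9 and numpy 2.4.6 under Python 3.11.15.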

Additional observations from a re-analysis of the deposited data

Results flagged for a closer look

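A single library stood apart within its group in 4 sets of values, by the gap to its nearest neighbour divided by the group's range. Over groups of 4, chance flags about 1 in 20. The Csf1 promoter peak had percentiles of 8.47, 70.2, 70.9 and 73.8 in Ctrl, where Ctrl replicate 2 took 0.945 of the range. As this is the strongest peak of the locus, the value flags both the region and the locus (0.945 for each). Peak numbers of 4, 6, 6 and 6 in FGR at the Csf1r locus (lowest in FGR replicate 4) and of 2, 2, 2 and 3 in FGR at the Csf1 locus (highest in FGR replicate 3) gave a ratio of 1, which any 3 equal whole numbers beside another give.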

How the results depend on the processing

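No test of a member or of its regions passed under any of the alternatives run. With 8 libraries the smallest p of the permutation and Fisher tests is 0.0286. A feature at that p passes adjustment only if most features reach it. Over all features the smallest adjusted permutation p was 0.330 for best percentile and 0.299 for region percentile. These tests could thus call no member, and they do not decide whether one differs. The gene-end difference at Csf1r and Csf2rb was 0.5 of libraries. It was 0 without Ctrl replicates 1 and 2 and with replicates 3 and 4 alone. Counting a pair as marked where either of its libraries was, the difference was 0 as well. It was also 0 with equal lists, where no library kept a gene-end peak at either gene. The difference of 0.75 at Csf3r was 0 with a window of 2 kb, which reaches the Mrps15 promoter region called in every library. Without Ctrl replicates 1 and 2 the peak number difference was -1 at Csf1r and -0.75 at Csf1, the log2 share -0.41 at Csf1r and -0.22 at Csf2rb, the best percentile -2.94 at Csf1 and 1.04 at Csf2ra, and the difference in share of libraries -0.25 at the Csf1 region at 36.7 kb and at the Csf2rb region at 14.3 kb. With replicates 3 and 4 alone these were -1.5 and -0.5 (peak number at Csf1r and Csf1), -0.62 and -0.35 (log2 share at Csf1r and Csf2rb), -0.643 (best percentile at Csf1) and -0.5 (the Csf2rb region). With lists of equal length, Csf1 had -0.25 for peak number, -11.1 for best percentile and -0.25 for the region at 36.7 kb. The Csf1r log2 share was -0.038 with a flank of 50 kb and -0.00055 with a pseudocount of 1, the Csf1 log2 share 0.25 without division by list length, and the Csf2rb region at -5.09 kb -0.25 where a peak had to cover 0.5 of it. Regions called in more FGR than Ctrl libraries numbered 16, against 5 with equal lists and 8 without Ctrl replicates 1 and 2. They numbered 7 with replicates 3 and 4 alone and 14 to 21 leaving out 1 library. With a pair counted as calling a region where either of its libraries did, they numbered 8. The cause of these reversals was not tested.

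Leaving out 1 library at a time gave -2.57 to 19.2 for the best percentile at Csf1 and -1.02 to 1.06 at Csf2ra, -0.083 to 0.583 for peak number at Csf1, and log2 shares of -0.10 to 0.32 at Csf1r, -0.18 to 0.53 at Csf2rb and -0.016 to 0.36 at Csf3r. The Csf1r share turned negative without FGR replicate 2, Ctrl replicate 1 or Ctrl replicate 2, the Csf2rb share without Ctrl replicate 2 and the Csf3r share without FGR replicate 2. The Csf1 best percentile turned negative without Ctrl replicate 2, and the Csf1 peak number without Ctrl replicate 1 or 2. With the replicate number as a block, limma gave log2 shares of 0.10, -0.34, -0.59, 0.28 and 0.16 in the order of the report (adjusted p from 0.159 to 0.795), and called 54 higher and 87 lower loci against 1 and 0 without it. Same-numbered libraries had deviations correlated with r from -0.018 to 0.098. They share a number and a deposit set, and whether they share a batch was not tested. Limma calls were 13 higher and 7 lower with equal lists, 7 and 50 with a pseudocount of 1, 26 and 35 with no filter, 8 and 7 without Ctrl replicate 3, 2 and 2 without Ctrl replicate 4, and 10 and 1 without division by list length, which moved the median of all loci to 0.31; no member was among them. Csf1r, Csf1 and Csf2rb had too few peaks for limma with equal lists, Csf1 and Csf2rb with −log10 q of at least 5, and all 5 with the gene span alone. From 0 to 7 peaks stand behind each locus and library, and the part of depth in these values was not tested.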
